A study of Homo sapiens with 9 samples.

Results

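Hypoxia response genes were examined as a set of 10 genes, HIF1A, EPAS1, VEGFA, EGLN1, EGLN3, BNIP3, BNIP3L, ADM, NDRG1 and ANKRD37, out of 63677 genes in the deposited table. They were chosen by symbol as the row on a primary chromosome, each symbol had 1 such row, and all 10 passed the minimum mean of 10 that admitted 17663 genes to the test. The data are messenger RNA sequencing of HCT116, an established human colon carcinoma line labelled wild type. The 9 libraries form 3 groups of 3. Cells received siRNA against RNF40 (siRNF40), siRNA against transglutaminase 2 (siTG2, encoded by TGM2) or control siRNA (siControl). All groups were transfected with Lipofectamine RNAiMAX, grown in McCoy's 5A medium and harvested 48 h later. The labels name no low-oxygen exposure in any group. RNF40 belongs to an enzyme complex that ubiquitinates histone H2B, and transglutaminase 2 can attach serotonin to histone H3.

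Cells sense oxygen through the stability of the HIF alpha proteins. With oxygen present, the prolyl hydroxylases EGLN1 and EGLN3 mark HIF-1 alpha (HIF1A) and HIF-2 alpha (EPAS1) for destruction through VHL, and without it the HIF proteins accumulate, pair with ARNT and switch on target genes. HIF activity is therefore set largely at the protein level, which messenger RNA does not report. In colon carcinoma the pathway is known for driving vessel growth and sugar metabolism.

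Promoter sequences are shown for 5 members because HIF binds a short core, ACGTG or GCGTG, and these promoters carry very different numbers of it. The sequences are the RefSeq entries of build GRCh38.p14, from 250 bases before to 50 bases after the annotated start, written 5′ to 3′ on the gene's strand. Capitals mark every ACGTG and GCGTG on either strand, so CACGT and CACGC are the cores on the opposite strand, and CACGTG holds ACGTG on both strands and counts as 2 matches. The BNIP3 window lies at chr10:131981874-131982173 on the minus strand, that of ANKRD37 at chr4:185396591-185396890 on the plus strand, and that of ADM at chr11:10304823-10305122 on the plus strand. The EGLN1 window lies at chr1:231422238-231422537 and that of EGLN3 at chr14:33951025-33951324, both on the minus strand.
BNIP3: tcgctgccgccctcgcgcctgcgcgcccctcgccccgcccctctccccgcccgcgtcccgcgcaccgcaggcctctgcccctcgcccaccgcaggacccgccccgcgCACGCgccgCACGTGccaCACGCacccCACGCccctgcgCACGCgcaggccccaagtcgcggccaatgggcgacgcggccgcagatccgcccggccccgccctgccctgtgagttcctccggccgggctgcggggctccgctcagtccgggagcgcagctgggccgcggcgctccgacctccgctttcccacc
ANKRD37: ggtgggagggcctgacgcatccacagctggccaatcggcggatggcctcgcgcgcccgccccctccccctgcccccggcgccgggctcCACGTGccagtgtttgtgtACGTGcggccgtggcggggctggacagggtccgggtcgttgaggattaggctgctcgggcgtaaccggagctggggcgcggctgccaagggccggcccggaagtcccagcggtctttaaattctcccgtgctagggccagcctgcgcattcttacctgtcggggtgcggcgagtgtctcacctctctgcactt
ADM: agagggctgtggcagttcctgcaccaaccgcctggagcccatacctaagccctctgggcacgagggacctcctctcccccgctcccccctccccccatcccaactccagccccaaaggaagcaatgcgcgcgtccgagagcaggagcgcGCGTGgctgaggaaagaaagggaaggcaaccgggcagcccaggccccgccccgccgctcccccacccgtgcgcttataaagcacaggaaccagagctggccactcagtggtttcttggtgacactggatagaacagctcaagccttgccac
EGLN1: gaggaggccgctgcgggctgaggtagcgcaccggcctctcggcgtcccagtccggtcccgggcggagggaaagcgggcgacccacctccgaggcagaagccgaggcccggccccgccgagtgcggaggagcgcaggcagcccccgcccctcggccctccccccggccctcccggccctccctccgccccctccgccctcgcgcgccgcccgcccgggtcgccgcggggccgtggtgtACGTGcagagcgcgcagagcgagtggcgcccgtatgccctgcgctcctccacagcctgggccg
EGLN3: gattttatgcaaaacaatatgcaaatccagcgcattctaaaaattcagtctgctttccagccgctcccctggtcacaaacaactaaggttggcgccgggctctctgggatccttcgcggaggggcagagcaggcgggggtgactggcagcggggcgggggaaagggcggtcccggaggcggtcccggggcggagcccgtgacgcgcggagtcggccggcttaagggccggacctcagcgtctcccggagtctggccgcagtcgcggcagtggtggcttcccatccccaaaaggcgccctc
BNIP3 held 6 matches, their first bases at positions -143 to -104 relative to the start. ANKRD37 held 3 matches, all ACGTG, at positions -162, -161 and -143. ADM held a single GCGTG at -101 and EGLN1 a single ACGTG at -13, while these letters were not in the EGLN3 window. The table had 8 promoter entries for 7 members, including EPAS1 with GCGTG at -117 and HIF1A with 2 annotated starts, a single one of which held GCGTG, at -204. In all, 6 of the 8 entries (75.0%) held at least 1 match, against 48.4% of all 35116 promoters in the table, and ACGTG alone was in 37.5% of the members' entries and 21.4% of all promoters. A match is a description of the letters and not a measured binding site.

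The libraries held 30632268 to 35743918 reads assigned to genes in siRNF40, 30136581 to 33343878 in siTG2 and 29161285 to 34143599 in siControl. RNF40 was at 18.7% of its siControl mean in siRNF40 libraries and 82.8% in siTG2 libraries. TGM2 was at 145% of its siControl mean in siRNF40 libraries and 18.5% in siTG2 libraries. Of 7 colon epithelial markers, 6 passed the minimum mean (VIL1 did not), none of 4 leukocyte markers did and CD3E was at 0. Of 4 fibroblast markers COL1A1 and PDGFRB passed, while DCN was at 0, and 1 of 3 endothelial markers passed. The summed level of the colon epithelial markers was 129433 to 156195 in siRNF40, 77901 to 89020 in siTG2 and 87273 to 95730 in siControl, and that of the fibroblast markers 1370 to 1703 in siRNF40, 1011 to 1160 in siTG2 and 822 to 995 in siControl. Genes with at least 1 read numbered 25296 to 25548 in siRNF40, 27123 to 27602 in siTG2 and 25162 to 25468 in siControl. The part of these differences in the results below was not tested.

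Per kilobase of merged exon, HIF1A and NDRG1 stood highest of the 10 genes and EGLN3 and ANKRD37 lowest. This length merges the exons of all annotated transcripts, so it can exceed that of the transcript expressed, and the order depends on it. Merged lengths were 5151 bases for HIF1A, 9823 for NDRG1 and 14431 for VEGFA. Before division by length, NDRG1 averaged 13918 normalized counts over the 9 libraries and HIF1A 8187. As normalized count per kilobase of exon, averaged over the 9 libraries, HIF1A stood at 1589, NDRG1 at 1417 and BNIP3L at 699. VEGFA followed at 439, ADM at 340, EPAS1 at 306 and EGLN1 at 278. BNIP3 stood at 130, ANKRD37 at 35.5 and EGLN3 at 25.9. The order differed in part between groups. HIF1A stood at 1296 ± 147 per kilobase in siRNF40, 1731 ± 52.9 in siTG2 and 1741 ± 52.4 in siControl (SD, n = 3), and NDRG1 at 1414 ± 74.1 in siRNF40, 1397 ± 59.7 in siTG2 and 1439 ± 8.14 in siControl. On this measure HIF1A was above NDRG1 without overlap in siTG2 and siControl, while both overlapped in siRNF40. VEGFA was above ADM, EPAS1 and EGLN1 without overlap in siTG2 and siControl, and overlapped its neighbour in siRNF40. ANKRD37 was above EGLN3 without overlap in siRNF40 and siControl, and overlapped it in siTG2. BNIP3L and BNIP3 were apart from both neighbours in all groups.

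**Figure D1:**
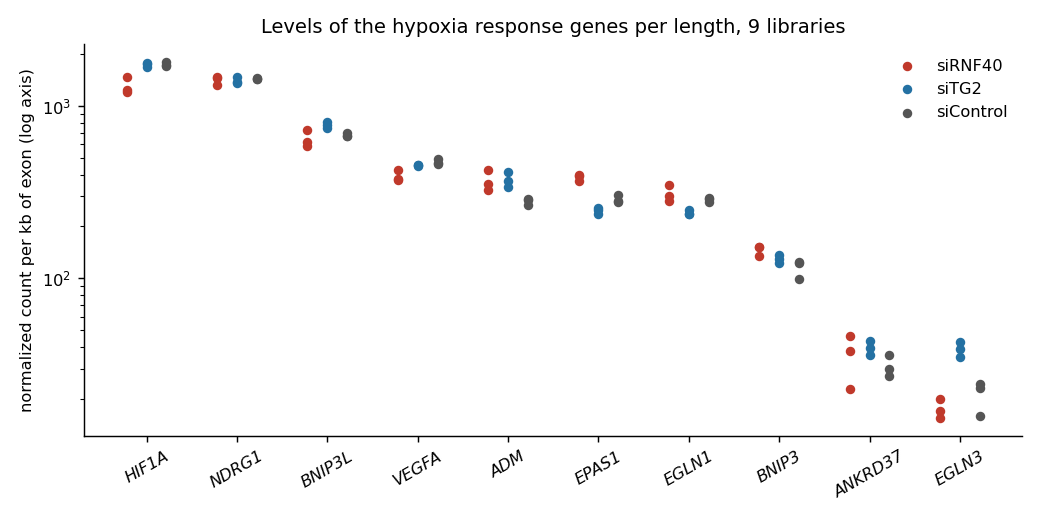
Normalized count per kilobase of exon on a log axis for each member, ordered by its mean, with 1 point per library and the groups siRNF40, siTG2 and siControl from left to right within each gene. HIF1A and NDRG1 lie at 1196 or more and EGLN3 and ANKRD37 at 46.2 or less in all 9 libraries.

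Calls in siRNF40 cells went in both directions, and so did those in siTG2 cells at the deposited scaling. Levels below are deposited normalized read counts, and the threshold for a call was an adjusted p under 0.05 (Benjamini-Hochberg) by limma on log2(count + 1), fitted on all 17663 tested genes. In siRNF40 cells EPAS1, BNIP3 and ADM rose and HIF1A and VEGFA fell, 5 of 10 members, against 45.3% of all tested genes called (21.7% higher and 23.6% lower). In siTG2 cells EGLN3 and ADM rose and EPAS1 and EGLN1 fell, 4 of 10, against 31.3% of all tested genes (12.8% higher and 18.5% lower). The siTG2 split of 2 higher and 2 lower was not stable. It became 4 higher and 0 lower with totals set equal and 5 higher and 0 lower under quantile normalization, and 2 higher and 0 lower without siControl replicate 1, siControl replicate 2 or siTG2 replicate 2. These shares are close to the background, so the count of calls says nothing about the set as such. The members' median log2 fold change was 0.04 in siRNF40 and 0.08 in siTG2, beside 0.02 and -0.01 over all tested genes. Both comparisons use the same siControl libraries. The libraries of both groups did not overlap for 5 members in siRNF40 against siControl, where 53.2% of all tested genes did not overlap, and for 7 members in siTG2 against siControl, where 46.5% did not. For a single gene the two-sided exact permutation test cannot go below p = 0.1 with 3 libraries against 3. Nothing in the labels ties the replicates to separate cultures, and the p-values then reflect only the spread among these libraries, which may be technical. In bulk RNA, fewer cells with a transcript and less transcript per cell cannot be told apart.

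**Figure D2:**
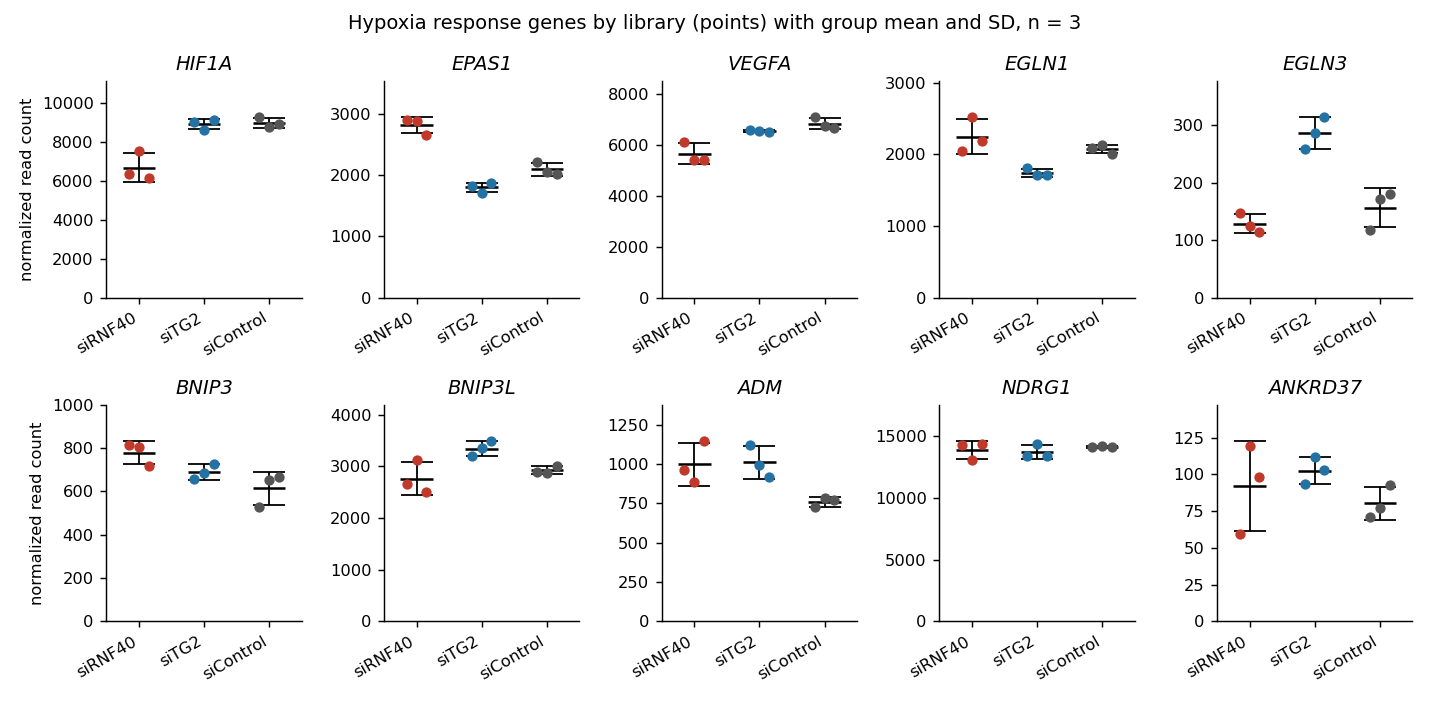
Normalized read count of each member in the 9 libraries, 1 panel per gene with an axis from 0, groups siRNF40, siTG2 and siControl from left to right; points are libraries, the long bar is the mean and the whiskers the SD (n = 3). HIF1A is low and EPAS1 high in siRNF40 libraries, EGLN3 is high in siTG2 libraries, and NDRG1 lies at 13051 to 14400 throughout.

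The genes of the alpha subunits moved in opposite directions after RNF40 knockdown. HIF1A (ENSG00000100644, chr14:62162231-62214976 in build hg19, plus strand), the oxygen-regulated subunit of HIF-1, had 6325, 7543 and 6162 normalized counts in siRNF40 libraries, 8994, 8612 and 9138 in siTG2 libraries, and 9264, 8735 and 8907 in siControl libraries. All siRNF40 libraries were below all others, and siTG2 and siControl libraries were intermingled. In siRNF40 cells HIF1A fell by 0.43 on the log2 scale (SE 0.071, adjusted p = 6.0e-05, limma), while in siTG2 cells the log2 fold change was -0.01 with a 95% interval of -0.16 to 0.14. With quantile normalization the siTG2 value became 0.20 (adjusted p = 0.022). The antisense transcripts HIF1A-AS2 and HIF1A-AS1 averaged 5.87 and 1.01 counts over the 9 libraries, below the level tested.

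EPAS1 (ENSG00000116016, chr2:46520806-46613836, plus strand) encodes HIF-2 alpha, the related subunit first described in endothelium. It had 2900, 2882 and 2662 normalized counts in siRNF40 libraries, 1818, 1713 and 1869 in siTG2 libraries, and 2211, 2050 and 2018 in siControl libraries. The 3 groups were fully apart, with siRNF40 highest and siTG2 lowest. EPAS1 rose by 0.43 on the log2 scale in siRNF40 cells (SE 0.073, adjusted p = 8.3e-05, limma) and fell by 0.22 in siTG2 cells (SE 0.073, adjusted p = 0.028, limma). The siTG2 call depended on the scaling, with a log2 fold change of -0.10 under quantile normalization and -0.07 with totals set equal, neither of them called. Among single libraries, leaving out siControl replicate 1 (-0.18) or 2 (-0.23) or siTG2 replicate 1 (-0.23) or 2 (-0.18) also ended it.

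The balance of both transcripts differed between groups. The ratio of EPAS1 to HIF1A, in counts per kilobase of exon, was 0.323, 0.270 and 0.305 in siRNF40 libraries, 0.143, 0.140 and 0.144 in siTG2 libraries, and 0.168, 0.166 and 0.160 in siControl libraries. HIF1A had the higher count per kilobase of merged exon in every library. A ratio within a library does not depend on how libraries are scaled to each other. Log2 profiles over the 9 libraries were compared after centring each gene on its own mean, with the members left out of the ranking. Among 12257 genes with a mean of at least 100, the nearest to HIF1A were PIK3C3, NGLY1 and FBXO3. Their root mean square distances were 0.039, 0.046 and 0.052.

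**Figure D3:**
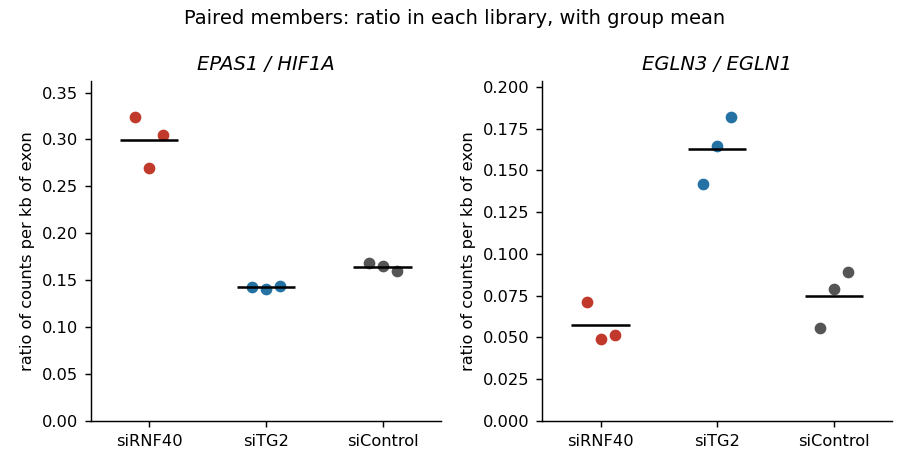
Ratio of counts per kilobase of exon of EPAS1 to HIF1A (left) and of EGLN3 to EGLN1 (right) in each library, groups siRNF40, siTG2 and siControl from left to right, with axes from 0 and a bar at the group mean. EPAS1 to HIF1A is 0.270 to 0.323 in siRNF40 libraries and 0.160 to 0.168 in siControl libraries, and EGLN3 to EGLN1 is 0.142 to 0.182 in siTG2 libraries.

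Of the prolyl hydroxylases, EGLN3 gave the largest fold change of the 10 members against siControl, in siTG2 cells. EGLN3 (ENSG00000129521, chr14:34393437-34931980, minus strand) encodes PHD3, whose gene is itself a HIF target. It had 147, 125 and 114 normalized counts in siRNF40 libraries, 259, 286 and 314 in siTG2 libraries, and 117, 171 and 181 in siControl libraries. The siTG2 libraries were above all others, and the siRNF40 and siControl libraries overlapped. EGLN3 rose by 0.89 on the log2 scale in siTG2 cells (SE 0.19, adjusted p = 0.0014, limma), and in siRNF40 cells the log2 fold change was -0.26 with a 95% interval of -0.66 to 0.14. The siTG2 call held under all 21 alternative settings, at 0.70 to 1.03. The annotated span of EGLN3 also holds SPTSSA on the same strand, at 963% of the level of EGLN3, and reads they share would be uncertain. SPTSSA itself had a log2 fold change of 0.00 in siTG2 cells (adjusted p = 0.99, limma). It fell by 0.55 in siRNF40 cells (adjusted p = 0.00010, limma) and by 0.55 in siRNF40 against siTG2 (adjusted p = 7.2e-05, limma). The part of shared reads in the EGLN3 values was not tested. No core motif was in the EGLN3 window shown above, which covers a single RefSeq start, and the rest of the annotated span was not searched.

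EGLN1 (ENSG00000135766, chr1:231499497-231560790, minus strand) encodes PHD2, the main hydroxylase acting on HIF-1 alpha. It had 2043, 2518 and 2181 normalized counts in siRNF40 libraries, 1805, 1717 and 1705 in siTG2 libraries, and 2084, 2129 and 2007 in siControl libraries. The siTG2 libraries were below all others, and the siRNF40 libraries overlapped the siControl libraries and reached higher. EGLN1 fell by 0.25 on the log2 scale in siTG2 cells (SE 0.080, adjusted p = 0.022, limma), and in siRNF40 cells the log2 fold change was 0.11 with a 95% interval of -0.06 to 0.28. The siTG2 call was lost under quantile normalization (-0.13) and with totals set equal (-0.11). Among single libraries, leaving out siControl replicate 1 (-0.25) or 2 (-0.23) or siTG2 replicate 2 (-0.24) or 3 (-0.24) also ended it. The ratio of EGLN3 to EGLN1 per kilobase of exon was 0.0710, 0.0490 and 0.0517 in siRNF40 libraries, 0.142, 0.164 and 0.182 in siTG2 libraries, and 0.0555, 0.0792 and 0.0889 in siControl libraries. Every siTG2 library was therefore above every other library in this ratio.

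The secreted factors differed from each other. VEGFA (ENSG00000112715, chr6:43737921-43754224, plus strand), the principal growth factor of blood vessels, had 6118, 5418 and 5379 normalized counts in siRNF40 libraries, 6569, 6534 and 6487 in siTG2 libraries, and 7080, 6741 and 6666 in siControl libraries. The siRNF40 libraries were the lowest, and the siTG2 libraries lay just under the siControl libraries without overlap. In siRNF40 cells VEGFA fell by 0.28 on the log2 scale (SE 0.063, adjusted p = 0.0014, limma), and in siTG2 cells the log2 fold change was -0.06 with a 95% interval of -0.20 to 0.07. The siTG2 value turned to 0.13 under quantile normalization and 0.08 with totals set equal, neither of them called. Outside the members, the genes with the centred profile nearest to that of VEGFA were JUN, ADNP and KCTD5. Their root mean square distances were 0.040, 0.051 and 0.051 on the log2 scale over the 9 libraries.

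ADM (ENSG00000148926, chr11:10326227-10328944, plus strand) encodes adrenomedullin, a vessel-widening peptide hormone, and was the single member called higher in both knockdowns. It had 962, 885 and 1148 normalized counts in siRNF40 libraries, 1125, 993 and 918 in siTG2 libraries, and 724, 788 and 772 in siControl libraries. Every knockdown library was above every siControl library, and both knockdowns covered a similar range. ADM rose by 0.38 on the log2 scale in siRNF40 cells (SE 0.11, adjusted p = 0.0062, limma) and by 0.41 in siTG2 cells (SE 0.11, adjusted p = 0.0065, limma). Without the filter on low values, which fits all 63677 genes, both calls were lost (adjusted p = 0.11 in siRNF40 and 0.12 in siTG2, limma).

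The related mitophagy receptors BNIP3 and BNIP3L, which sit in the outer mitochondrial membrane and recruit the autophagy machinery, differed in their calls. BNIP3 (ENSG00000176171, chr10:133781578-133795435, minus strand) had 815, 807 and 717 normalized counts in siRNF40 libraries, 656, 687 and 726 in siTG2 libraries, and 527, 651 and 666 in siControl libraries. The siRNF40 libraries were above all siControl libraries, and siControl replicate 1 was the lowest of the 9. BNIP3 rose by 0.35 on the log2 scale in siRNF40 cells (SE 0.11, adjusted p = 0.014, limma), and in siTG2 cells the log2 fold change was 0.17 with a 95% interval of -0.06 to 0.40. The siRNF40 call was lost without siControl replicate 1 (0.24, adjusted p = 0.10, limma) and without siRNF40 replicate 1 (0.31, adjusted p = 0.0502, limma). Without the filter on low values it was lost too (adjusted p = 0.11, limma). With totals set equal the siTG2 value of BNIP3 reached 0.32 and was called (adjusted p = 0.030, limma). The pseudogene BNIP3P1 averaged 1.99 counts over the 9 libraries.

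BNIP3L (ENSG00000104765, chr8:26240414-26363152, plus strand), also known as NIX, had 2651, 3132 and 2510 normalized counts in siRNF40 libraries, 3192, 3348 and 3493 in siTG2 libraries, and 2891, 2872 and 3013 in siControl libraries. The siTG2 libraries were above all others, while the siRNF40 libraries lay on both sides of the siControl libraries. The log2 fold change of 0.19 in siTG2 cells (SE 0.079, adjusted p = 0.071, limma) was not called, and in siRNF40 cells it was -0.09 with a 95% interval of -0.25 to 0.08. The siTG2 value passed the threshold under 6 of 21 alternative settings, among them quantile normalization (0.32) and totals set equal (0.34). PNMA2, which overlaps BNIP3L on the opposite strand at 2.82% of its level, rose by 1.79 on the log2 scale in siTG2 cells (adjusted p = 0.00071, limma), and no source used here says whether strand was used in counting.

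NDRG1 (ENSG00000104419, chr8:134249414-134314265, minus strand), a stress-responsive gene used widely as a marker of hypoxia, was called in no comparison at the deposited scaling. It had 14266, 13051 and 14355 normalized counts in siRNF40 libraries, 13362, 14400 and 13406 in siTG2 libraries, and 14096, 14232 and 14091 in siControl libraries. All 3 groups overlapped. The log2 fold change was -0.03 in siRNF40 cells (95% interval -0.15 to 0.10) and -0.04 in siTG2 cells (-0.17 to 0.08). At this scaling of the libraries, a log2 change of more than about 0.2 lies outside both intervals. Under quantile normalization the siTG2 value was 0.17 (adjusted p = 0.034, limma). The value for siRNF40 against siTG2 was then -0.23 (adjusted p = 0.0030, limma).

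ANKRD37 (ENSG00000186352, chr4:186317175-186321782, plus strand), a small ankyrin repeat gene with a strong HIF response in other settings, was among the least abundant, with 58 to 129 reads in a library. It had 59.1, 119 and 98.2 normalized counts in siRNF40 libraries, 93.3, 112 and 103 in siTG2 libraries, and 70.7, 76.9 and 93.0 in siControl libraries. The siRNF40 libraries enclosed the siControl range, and the siTG2 libraries lay just above it. Neither knockdown passed the test, at a log2 fold change of 0.15 in siRNF40 cells (95% interval -0.39 to 0.70) and 0.36 in siTG2 cells (-0.19 to 0.90), so changes as large as those of ADM lie within these intervals. UFSP2 overlaps ANKRD37 on the opposite strand at 932% of its level and fell in both knockdowns, by 0.87 in siRNF40 and 0.52 in siTG2 on the log2 scale (adjusted p = 3.7e-07 and 0.00032, limma), so ANKRD37 counts are uncertain.

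The knockdowns were compared directly, since a call in one and not in the other does not show a difference. Of the 10 members 6 differed, against 53.3% of all tested genes called (26.6% higher and 26.6% lower in siRNF40), and the libraries did not overlap for the same number, against 58.3% of all tested genes. EPAS1 was 0.64 higher on the log2 scale in siRNF40 than in siTG2 (SE 0.073, adjusted p = 4.5e-07, limma) and EGLN1 0.36 higher (SE 0.080, adjusted p = 0.00084, limma). EGLN3 fell by 1.15 in siRNF40 relative to siTG2 (SE 0.19, adjusted p = 4.4e-05, limma), HIF1A by 0.42, BNIP3L by 0.28 and VEGFA by 0.21. SPTSSA, which overlaps EGLN3 on the same strand, also fell in this comparison, by 0.55. BNIP3, ADM, NDRG1 and ANKRD37 were not called. For ADM the difference was -0.02 with a 95% interval of -0.25 to 0.20. The EGLN1 call was lost with totals set equal (0.19), and NDRG1 then reached -0.16 and was called. The BNIP3L call was lost without the filter on low values (adjusted p = 0.091, limma).

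**Figure D4:**
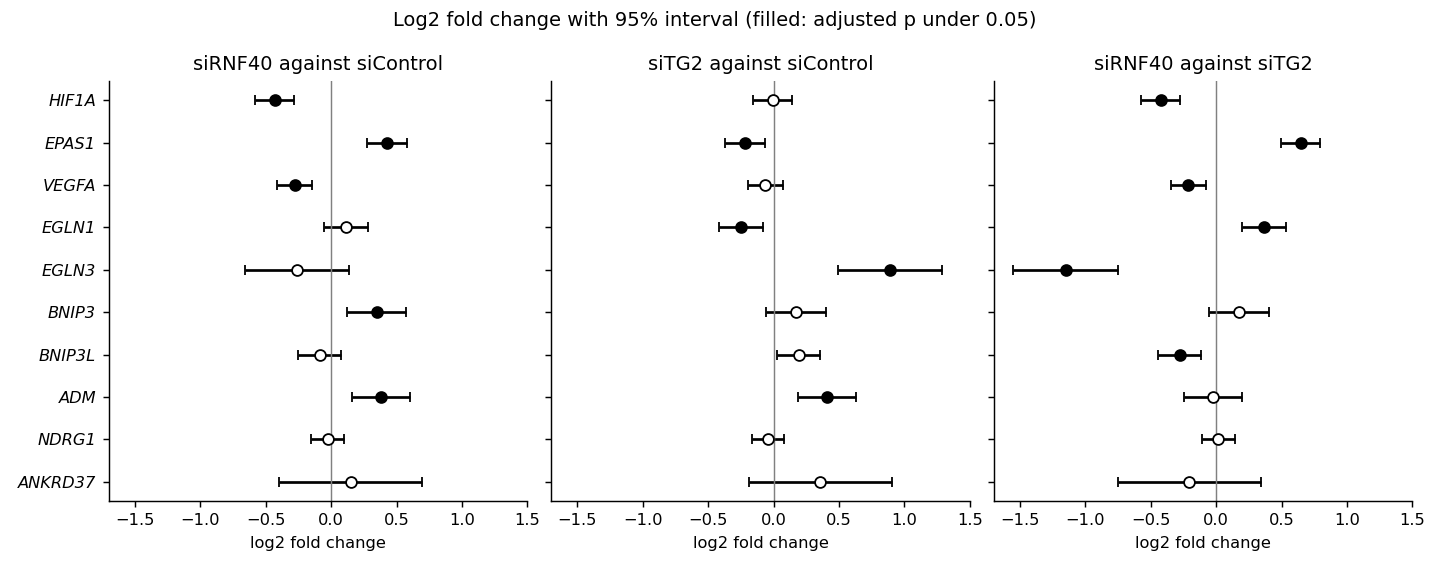
Log2 fold change of each member with its 95% interval from limma in the 3 comparisons, on a common axis; filled points have an adjusted p under 0.05. HIF1A is left of 0 and EPAS1 right of 0 in siRNF40 against siControl, and EGLN3 stands at 0.89 in siTG2 against siControl and at -1.15 in siRNF40 against siTG2.

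Among other genes of the pathway, the regulators split in both knockdowns. Of 16 genes of the HIF and oxygen-sensing machinery 15 were tested. In siRNF40 cells 6 rose and 5 fell (median log2 fold change -0.10), and in siTG2 cells 4 rose and 5 fell (median 0.06), beside medians of 0.02 and -0.01 over all tested genes. The calls made up 73.3% (siRNF40) and 60% (siTG2) of the tested list, against 45.3% of all tested genes in siRNF40 and 31.3% in siTG2. These background shares include many low genes, while most genes of this and the later lists have a mean above 50. With a minimum mean of 50, larger shares were called, 7648 of 13545 genes in siRNF40 and 5364 in siTG2. The part of expression level in the shares of the lists was not tested. In siRNF40 cells SIAH2, a ubiquitin ligase that degrades prolyl hydroxylases, fell to 762 ± 56.9 normalized counts, against 1781 ± 47.7 in siControl cells (SD, n = 3), while VHL rose by 0.47 and TCEB2, elongin B of the VHL complex, by 0.75 on the log2 scale. In the same list and cells CUL2 fell by 0.37, while ARNT rose by 0.41 and HSP90AA1 and HSP90AB1 each by 0.52. In siTG2 cells the coactivator CREBBP fell by 0.70, while EGLN2, the remaining prolyl hydroxylase, rose by 0.57 and HIF1AN, the asparagine hydroxylase that blocks coactivator binding, by 0.27. There ARNT also rose by 0.27 and TCEB1 fell by 0.24, and both of these calls were lost in some alternative settings.

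Of 14 glucose genes under HIF control, all tested, 3 rose and 6 fell in siRNF40 cells (median log2 fold change -0.15), and 3 rose and 3 fell in siTG2 cells (median -0.04). The shares called were 64.3% in siRNF40 and 42.9% in siTG2, against 45.3% and 31.3% of all tested genes, whose medians were 0.02 and -0.01. LDHA, which makes lactate, had 5386 ± 258 normalized counts in siRNF40, 14615 ± 892 in siTG2 and 15691 ± 430 in siControl cells (SD, n = 3). SLC16A3, the lactate exporter, fell by 0.84 and PGK1 by 0.46 on the log2 scale in siRNF40 cells. The 3 that rose there were ALDOA by 0.56, HK2 by 0.21 and ENO1 by 0.18. The HK2 and ENO1 calls were lost in some alternative settings, and ENO1 turned to -0.15 under quantile normalization. The glucose transporter SLC2A1 had 8094 ± 735 normalized counts in siRNF40, 14931 ± 387 in siTG2 and 9485 ± 54.9 in siControl cells. It fell by 0.23 in siRNF40 and rose by 0.65 in siTG2, and the direct difference of -0.89 was called (adjusted p = 1.4e-09, limma). In siTG2 cells ENO2 rose by 0.62, and HK2 fell by 0.41 and ENO1 by 0.55 on the log2 scale.

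Of 32 further HIF targets 29 were tested, with 8 higher and 8 lower in siRNF40 cells (median log2 fold change -0.05) and 10 higher and 4 lower in siTG2 cells (median 0.02). Called genes were 55.2% of the tested list in siRNF40 and 48.3% in siTG2, against 45.3% and 31.3% of all tested genes, whose medians were 0.02 and -0.01. The siRNF40 share was not above the 7648 of 13545 genes called there with a minimum mean of 50. DDIT4, an inhibitor of mTORC1 signalling, had 22770 ± 1058 normalized counts in siRNF40, 10925 ± 503 in siTG2 and 11522 ± 117 in siControl cells. The histone demethylases KDM4B and KDM3A moved apart in siRNF40 cells, KDM4B rising by 0.99 and KDM3A falling by 0.72 on the log2 scale. HMOX1, which degrades haem, rose by 0.92 in siRNF40 and by 0.73 in siTG2. In siTG2 cells the carbonic anhydrase CA12 rose by 1.32 and INSIG2, a brake on sterol synthesis, fell by 0.95.

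Around VEGFA and ADM, 7 of 11 other ligands and receptors were tested, 2 higher and 2 lower in siRNF40 cells (median log2 fold change 0.46) and 1 higher and 2 lower in siTG2 cells (median -0.17). The list was called to 57.1% in siRNF40 and 42.9% in siTG2, against 45.3% and 31.3% of all tested genes, with all-gene medians of 0.02 and -0.01. NRP1, a VEGF co-receptor, had 1734 ± 88.9 normalized counts in siRNF40, 1891 ± 104 in siTG2 and 4653 ± 93.7 in siControl cells. PGF, placental growth factor, had 194 ± 17.6 in siRNF40, 223 ± 32.4 in siTG2 and 85.1 ± 14.0 in siControl cells. NRP1 fell and PGF rose in both knockdowns (adjusted p at most 4.2e-05, limma), and the direct difference was not called for NRP1 (-0.12, adjusted p = 0.15, limma) or PGF (-0.19, adjusted p = 0.42, limma). With totals set equal the difference for NRP1 was -0.30 and was called.

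Among 11 mitophagy receptors and partners, 6 rose and 1 fell in siRNF40 cells (median log2 fold change 0.28), and 2 rose and 3 fell in siTG2 cells (median 0.03). These are 63.6% of the list in siRNF40 and 45.5% in siTG2, against 45.3% and 31.3% of all tested genes, with all-gene medians of 0.02 and -0.01. SQSTM1, an autophagy cargo adaptor, had 30648 ± 2465 normalized counts in siRNF40, 44558 ± 2699 in siTG2 and 21119 ± 184 in siControl cells. GABARAPL1, a membrane-bound autophagy protein, rose by 0.84 on the log2 scale in siRNF40 cells, and its relative MAP1LC3B fell by 0.49 in siTG2 cells. Of the relatives of NDRG1, NDRG2 rose by 0.51 in siRNF40 and 0.80 in siTG2, NDRG3 rose by 0.43 in siRNF40, and NDRG4 rose by 1.49 in siTG2.

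**Figure D5:**
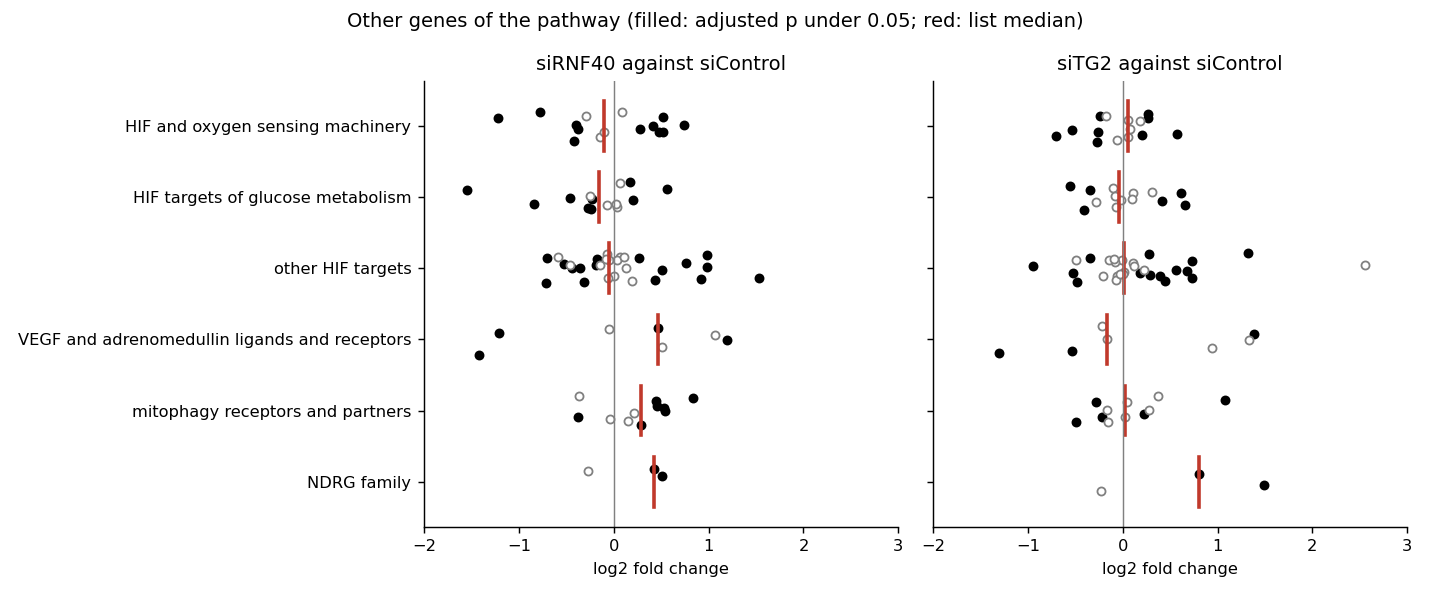
Log2 fold change of each tested gene of 6 lists in siRNF40 against siControl (left) and siTG2 against siControl (right); filled points have an adjusted p under 0.05 and the red bar is the list median. Called genes lie on both sides of 0 in every list except the NDRG family, and LDHA at -1.54 is the lowest point on the left.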

How the data were processed

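For the 9 libraries the submitters' processing notes name Trim Galore 0.4.1, STAR 2.7.0, HTSeq 0.12.4, DESeq2 and the builds hg19 and hg38. Gene positions are hg19. The strand setting is not given in the sources used here. The deposited table gives a signal, read counts per gene divided by a size factor per library; every value was a whole read count (within 0.001) after rescaling. The columns named NC were taken as siControl, and no column was left unmapped. The authors also deposited comparison tables with log2 fold changes, standard errors, a test statistic (score) and p-values against siControl; by adjusted p they call the same 5 and 4 members, with the same sign for all 10 members in both.

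Here limma 3.58.1 in R 4.3.3, with an intensity trend, was fitted on log2(value + 1) of genes with a mean of at least 10, all 9 libraries and 3 group means, two-sided, with Benjamini-Hochberg adjustment at 0.05. A fold change is on the log2(value + 1) scale, which understates the change of low genes. The fit was tested on simulated data. Recovered counts were tested with edgeR 4.0.16 and DESeq2 1.42.0 as alternatives, 21 alternatives in all. Exon lengths are from GENCODE 29, with exons of all transcripts merged, and promoters from RefSeq.

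The members and lists were chosen with earlier results of these data known. Named are all members, both siRNA targets, overlapping genes, and from each list up to 4 called genes per direction and comparison by size of change with a mean of at least 50, and up to 2 uncalled genes. The overlapping genes and CUL2, named in addition, were chosen after their values were seen.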

Additional observations from a re-analysis of the deposited data

How the results depend on the processing

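Over 21 alternatives, 598 of 630 values for the members kept their side of the threshold without a called value turning sign, 21 lost the call, 7 gained one, and 4 changed sign with a call in either setting. A further 19 changed sign with no call in either setting. In siRNF40 cells HIF1A (-0.52 to -0.38), EPAS1 (0.39 to 0.49) and VEGFA (-0.34 to -0.21) kept their calls throughout. Without a filter on low values the calls over all genes fell to 5298 in siRNF40 and 2960 in siTG2, against 8000 and 5533, and to 3 and 1 among the members; the cause was not tested. Leaving out 1 library gave 2 to 5 called members in siTG2, with 2 without siControl replicate 1, siControl replicate 2 or siTG2 replicate 2. With totals set equal the median log2 fold change of all genes moved to 0.13 in siTG2 and -0.19 in the direct contrast, and calls were 3872 higher and 1890 lower in siTG2, against 2263 and 3270, and 3278 higher and 6324 lower in the direct contrast, against 4704 and 4706. The called members in siTG2 were then 4 higher and 0 lower, and 5 higher and 0 lower under quantile normalization, against 2 and 2. Called signs changed under quantile normalization for HIF1A (0.20) and NDRG1 (0.17) in siTG2, NDRG1 in the direct contrast (-0.23, and -0.16 with equal totals), ENO1 in siRNF40 (-0.15) and HSP90AA1 in the direct contrast (-0.095), and the cause was not tested. Same-numbered replicates did not deviate together (correlations -0.08 to 0.08), which cannot decide whether they were prepared together. With a replicate block 7735, 5164 and 9203 genes were called in siRNF40, siTG2 and the direct contrast, and 5, 4 and 6 members. Depth limits ANKRD37 (58 to 129 reads) most.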

Other observations

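Several hypoxia genes lay below the level tested. CA9, a carbonic anhydrase widely used as a hypoxia marker, had 0 to 7.40 normalized counts in siRNF40 libraries, 5.65 to 10.6 in siTG2 libraries and 0 to 1.10 in siControl libraries, so siTG2 libraries were above siControl libraries at a level of few reads. HIF3A, the gene of an alpha subunit that can oppose HIF, had 2.04 to 6.40 in siRNF40, 5.86 to 17.9 in siTG2 and 0.949 to 2.07 in siControl libraries. STC1, a secreted glycoprotein, had 0 to 1.02 in siRNF40, 0.880 to 1.95 in siTG2 and 1.10 to 9.30 in siControl libraries. EPO, the gene of erythropoietin, had 0 to 5.34 in siRNF40, 0 to 0.977 in siTG2 and 0 to 4.13 in siControl libraries. None of these was tested. VEGFC, FLT1, RAMP2 and RAMP3 were also below the level tested, with FLT1 at 0 to 11.7 in siTG2 libraries and the others at 0.880 or less in all libraries.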
